A study of Homo sapiens with 6 samples.

Results

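MicroRNA host transcripts are the long noncoding RNAs that are named for the microRNAs cut out of them, and they were taken here as every gene of the deposited table whose symbol begins with MIR and ends with HG. The rule found 28 of the 21301 genes, all 28 annotated as lncRNA, whatever their level. They were measured in SH-SY5Y cells, a human neuroblastoma line with a sympathetic neuron-like character, 72 h after transfection of a control siRNA (siControl, 3 libraries) or of an siRNA against PSF at 10 nM (siPSF, 3 libraries). PSF, the product of SFPQ, is an RNA-binding protein of the nuclear paraspeckle, and the comparison asks which RNAs depend on it in neuronal cells. All libraries came from 1 cell line, 1 time point and, by the study's methods, 1 siRNA sequence, so an effect of that sequence on other RNAs cannot be told apart from the loss of PSF. The study describes the 3 libraries of a group as biological replicates, and how the cultures were kept apart is not given in the sources used here.

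A microRNA is transcribed as part of a long primary transcript. DROSHA and DGCR8, which form the Microprocessor, cut a hairpin out of it in the nucleus, DICER1 trims the hairpin in the cytoplasm, and an Argonaute protein holds the mature strand, whose seed (bases 2 to 8) pairs with target mRNAs. Where the hairpin lies in an exon, the host transcript is what is left of, or has escaped, that cut. This does not hold for a hairpin in an intron. PSF and its partner NONO are known to bind many primary microRNAs. Libraries of poly(A) RNA read the host transcript and not the mature microRNA. A host level therefore says nothing direct about the amount of its microRNA, and in bulk RNA fewer transcribing cells and less RNA per cell cannot be told apart.

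The libraries held from 101540520 to 132420931 counts. SFPQ itself was checked first. It lay between 356 and 401 CPM after siControl and between 165 and 209 CPM after siPSF, a log2 change of -0.99 (standard error, SE, 0.10, edgeR adjusted p = 9.5e-05). CPM are counts scaled to library size with TMM factors. The library siPSF replicate 3 stood apart from siPSF replicates 1 and 2 in some genes: H19, named after its values were seen, was at 276, 291 and 1050 CPM in siPSF and at 519, 1252 and 1068 CPM in siControl. Replicate 3 of siControl also differed more from siControl replicates 1 and 2 (chi-square per degree of freedom 66.18 and 61.75) than those from each other (36.22). For siPSF replicate 3 the values were 58.85 and 64.73, against 22.44 between siPSF replicates 1 and 2. Of the markers of the adrenergic neuroblastoma lineage all 10 were listed, with TH at a mean of 0.53 CPM and each of the others above 200 CPM, and their summed level was 5310 to 5880 CPM in siControl and 4730 to 5660 CPM in siPSF. Of these 10 markers, DBH (-0.68 on the log2 scale), TH (-1.20) and ELAVL4 (-0.46) were called lower by edgeR and GATA3 (0.30) higher. Of the endothelial markers 0 of 3 were listed, of the immune markers 1 of 5 (summed level 0.619 to 1.08 CPM in siControl, 0.994 to 1.45 CPM in siPSF) and of the glial markers 2 of 7 (1.17 to 1.63 and 0.824 to 2.37 CPM). The mesenchymal markers (6 of 7 listed) summed to between 47.2 and 67.6 CPM and between 44.1 and 50.8 CPM. Of them 1, COL3A1, was called lower (-0.71, edgeR adjusted p = 0.047) and 0 were called higher. The epithelial markers (4 of 5 listed, KRT5 not) summed to between 2.22 and 2.94 CPM in siControl and between 3.52 and 5.62 CPM in siPSF, with EPCAM called higher (0.86, edgeR adjusted p = 0.014). The part of these changes in the results on host transcripts was not tested.

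By position on GRCh38, 27 of the 28 hosts contained at least 1 RefSeq microRNA gene, 45 in all, and the microRNA gene named by the other one, MIR124-1HG, lay just outside its RefSeq span. Of 37 hairpins that could be placed against GENCODE transcripts of their host, 23 lay in an exon of at least 1 transcript and 14 in an intron of every transcript. RefSeq mature sequences were found for 25 hosts. Of their seeds, 5 were shared by more than 1 host. These are shown first because 2 of the 3 hosts that were called, MIR99AHG and MIR100HG, carry the same seeds. Seeds are in capitals.
hsa-miR-99a-5p: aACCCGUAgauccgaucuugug
hsa-miR-100-5p: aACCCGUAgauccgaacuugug
hsa-let-7a-5p: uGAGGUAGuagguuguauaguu
hsa-let-7b-5p: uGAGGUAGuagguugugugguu
hsa-let-7c-5p: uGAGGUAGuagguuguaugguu
hsa-miR-4458: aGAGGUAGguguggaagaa
hsa-miR-125b-5p: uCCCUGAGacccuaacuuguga
hsa-miR-9-5p: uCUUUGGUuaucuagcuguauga
hsa-miR-9-3p: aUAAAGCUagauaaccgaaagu
Counted from the 5′ end, miR-99a-5p differs from miR-100-5p by A16U alone, let-7c-5p differs from let-7a-5p by A19G, and let-7b-5p differs from it by A17G and A19G, all outside the seed. MIR99AHG carries miR-99a, let-7c and miR-125b-2, and MIR100HG carries the parallel set of miR-100, let-7a-2 and miR-125b-1. MIRLET7BHG carries let-7a-3 and let-7b, and the microRNA of MIR4458HG has the let-7 seed in an otherwise different sequence. MIR9-1HG and MIR9-3HG give rise to the same mature miR-9 strands.

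The host transcripts covered a wide range of levels. In the deposited FPKM, which are scaled by transcript length and so allow levels of different genes to be compared, the siControl mean was highest for MIR34AHG (6.81 ± 0.691 FPKM, SD, n = 3), MIR9-1HG (5.38 ± 0.473 FPKM) and MIR1915HG (4.15 ± 0.763 FPKM). It was lowest for MIR1302-2HG (0.0372 ± 0.011 FPKM), 183 times below MIR34AHG. In siControl, 10 hosts lay at 2 FPKM or more, 4 between 1 and 2 FPKM, and 14 under 1 FPKM. In counts, 22 hosts had a mean of at least 1 CPM over the 6 libraries and 6 lay under it.

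**Figure D1:**
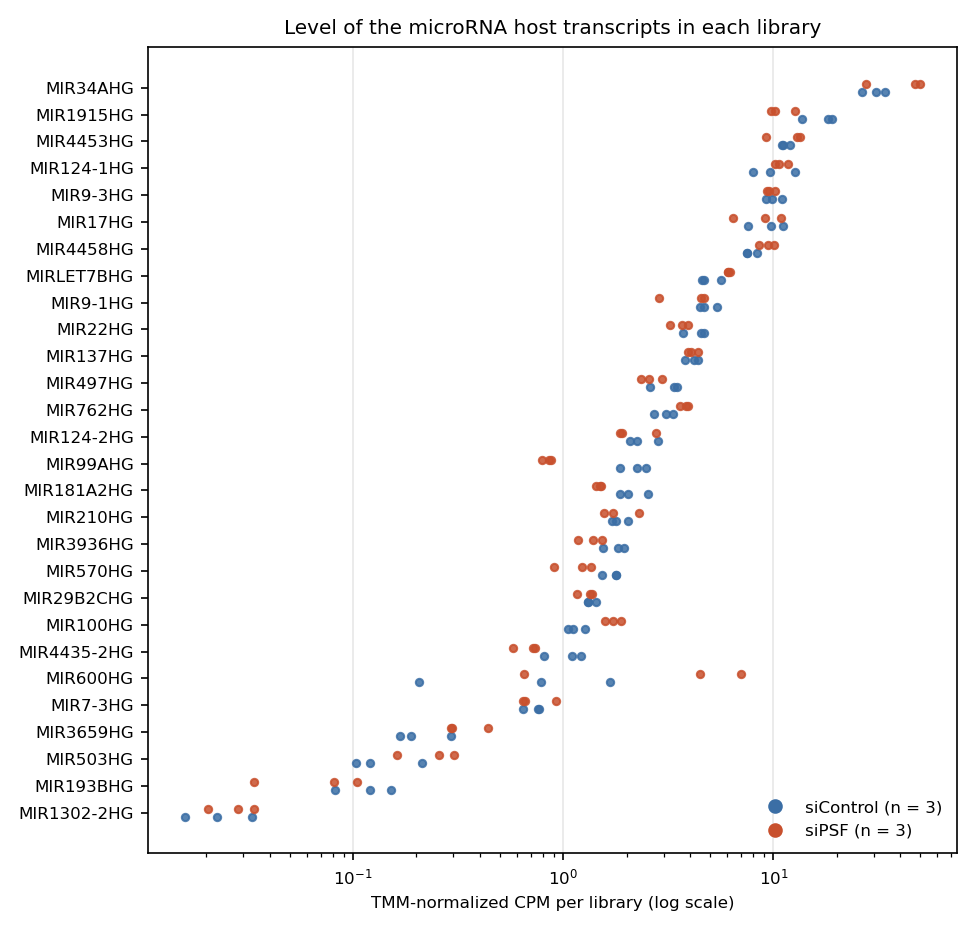
TMM-normalized CPM (log scale) of all 28 microRNA host transcripts in each of the 6 libraries, ordered by the siControl mean. Blue points are the 3 siControl libraries and orange points the 3 siPSF libraries. MIR34AHG lies at the top, MIR99AHG shows the siPSF points well to the left of the siControl points, and the points of MIR600HG spread widely within each group.

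Of the 28 hosts, 27 had enough counts to be tested by edgeR among 19694 genes. In the siPSF libraries 2 hosts were lower, MIR99AHG and MIR1915HG, and 1 was higher, MIR100HG, called where the p-value of edgeR's quasi-likelihood test, adjusted over all genes tested, was under 0.05. The background share of all genes tested was 8.27% called lower and 6.65% called higher, so the hosts were called about as often as genes at large (11.1% against 14.9% in either direction). The median log2 change of the 27 hosts was -0.05, beside 0.01 for all genes tested and -0.07 for all lncRNA genes tested. The groups did not overlap in 11 hosts, with siPSF below siControl in 6 and above it in 5, or 22.2% and 18.5% of those tested, beside 17.8% and 16.7% of all genes tested. An unadjusted p under 0.05 (edgeR) was found for 11 of the 27 hosts, 5 with a lower and 6 with a higher siPSF value. Among all 19694 genes tested it was found for 5861, 3026 lower and 2835 higher. The count of higher hosts rested on single libraries: it was 0 without any one of siControl replicates 1, 2 and 3 or siPSF replicates 1 and 2, and 3 without siPSF replicate 3 (MIR100HG, MIR34AHG and MIR600HG). The count of lower hosts was 1 without siControl replicate 2 or 3.

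**Figure D2:**
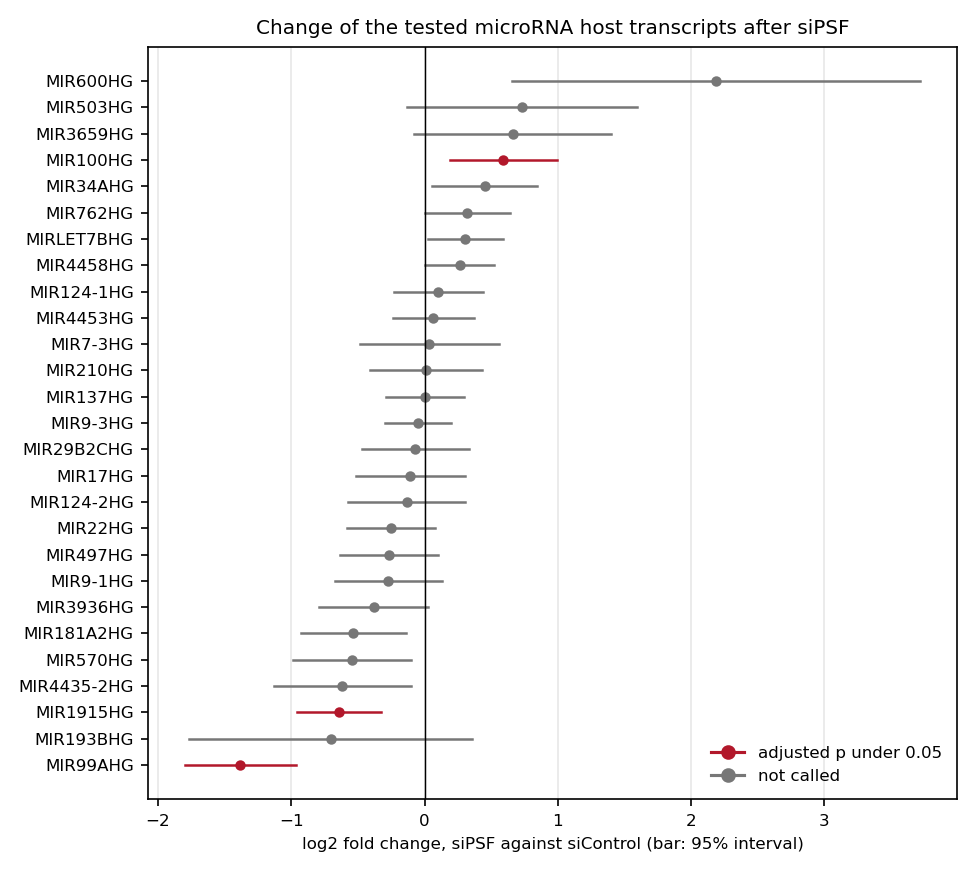
Log2 fold change, siPSF against siControl, of the 27 tested hosts with its 95% interval from edgeR's fit. Red marks an adjusted p under 0.05 and grey the hosts that were not called. Most intervals include 0, MIR99AHG lies farthest to the left at -1.38, and MIR600HG lies farthest to the right with an interval from 0.65 to 3.72.

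Among the hosts that share seeds, MIR99AHG (gene ID 388815) is the longest. It covers 561.24 kb of chromosome 21, from 16070488 to 16631727 on the plus strand. It was at 2.24, 1.87 and 2.47 CPM in siControl and at 0.876, 0.796 and 0.852 CPM in siPSF. No siPSF library came near the lowest siControl library. Means of 3 libraries were 2.19 ± 0.305 CPM (SD) in siControl and 0.841 ± 0.041 CPM in siPSF, which is a log2 change of -1.38 (SE 0.19, edgeR adjusted p = 6.6e-04). The call held in all 6 fits that each left out 1 library, where the value stayed between -1.49 and -1.29.

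MIR100HG (gene ID 399959), the parallel host on chromosome 11 (122028329 to 122422871, minus strand, 394.54 kb), had the opposite sign. Its level was 1.05, 1.12 and 1.27 CPM in siControl and 1.73, 1.88 and 1.58 CPM in siPSF, again with no overlap between the groups. The log2 fold change was 0.59 (SE 0.18) and its adjusted p of 0.0497 (edgeR) stood just inside the threshold. Without 1 library the call was lost in 5 of 6 fits, with adjusted p-values from 0.036 to 0.16 and values from 0.529 to 0.668. The one fit that kept it was without siPSF replicate 3. DESeq2's Wald test gave an adjusted p of 0.028, while edgeR gave 0.051 with DESeq2's size factors and 0.074 without the filter on low counts. The ratio of MIR100HG to MIR99AHG within a library was 0.469, 0.598 and 0.514 in siControl and 1.97, 2.36 and 1.86 in siPSF. The change of this ratio was 1.97 on the log2 scale, larger than the SD of 0.178 in siControl and 0.179 in siPSF. This ratio is a description. An exact permutation test of it gave p = 0.1, the smallest value that the number of libraries allows. That outcome was fixed in advance and carries no weight, since both hosts were already known not to overlap between the groups, in opposite directions. All 4 microRNA genes inside MIR100HG and MIR99A inside MIR99AHG lie in introns of every GENCODE transcript, and MIRLET7C lies in an exon of at least 1. Both transcripts are long, and so is MIR4435-2HG, the only other host of 100 kb or more, which is described with the low hosts.

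The other hosts with the let-7 seed were not called. MIRLET7BHG (gene ID 400931, chromosome 22, 46085997 to 46113928, plus strand), from which both let-7a-3 and let-7b are cut, was at 4.69, 5.61 and 4.60 CPM in siControl and 6.10, 6.09 and 6.25 CPM in siPSF. Every siPSF library lay above every siControl library, and the log2 fold change was 0.31 (SE 0.13, edgeR adjusted p = 0.14). MIR4458HG (gene ID 100505738, chromosome 5, 8457687 to 8463096, plus strand) was at 7.46, 7.47 and 8.40 CPM in siControl and 9.44, 8.50 and 10.1 CPM in siPSF, also without overlap, with a log2 change of 0.26 (SE 0.12, edgeR adjusted p = 0.16). Of the 4 hosts with a let-7 seed that are named for their microRNA, MIR99AHG was thus the one with a lower siPSF level. The hosts with higher siPSF values differed from siControl by 0.26 to 0.59 on the log2 scale. HUWE1 and WDR82 hold let-7f-2 and let-7g but are not named for them, and neither was called. HUWE1 was lower in siPSF without overlap (log2 change -0.22, edgeR adjusted p = 0.10). WDR82 had a log2 change of -0.05 (edgeR adjusted p = 0.74).

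The miR-9 hosts were not called. The microRNA miR-9 is a regulator of neural progenitors and is abundant in the nervous system. MIR9-1HG (gene ID 10485, chromosome 1, 156404252 to 156429548, minus strand) was at 5.40, 4.67 and 4.47 CPM in siControl and 4.53, 4.67 and 2.84 CPM in siPSF, with siPSF replicate 3 below the other 5 libraries. Its log2 fold change was -0.27 (95% interval -0.67 to 0.13, edgeR adjusted p = 0.36). Without siPSF replicate 3 it was -0.075 (adjusted p = 0.78). MIR9-3HG (gene ID 254559, chromosome 15, 89361579 to 89398488, plus strand) was at 10.9, 9.87 and 9.24 CPM in siControl and 9.56, 10.1 and 9.37 CPM in siPSF. The groups overlapped and the log2 fold change was -0.05 (95% interval -0.30 to 0.20, edgeR adjusted p = 0.81). LINC00461, which holds the third miR-9 gene but is not named for it, had a log2 change of -0.05 (SE 0.19, edgeR adjusted p = 0.90).

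**Figure D3:**
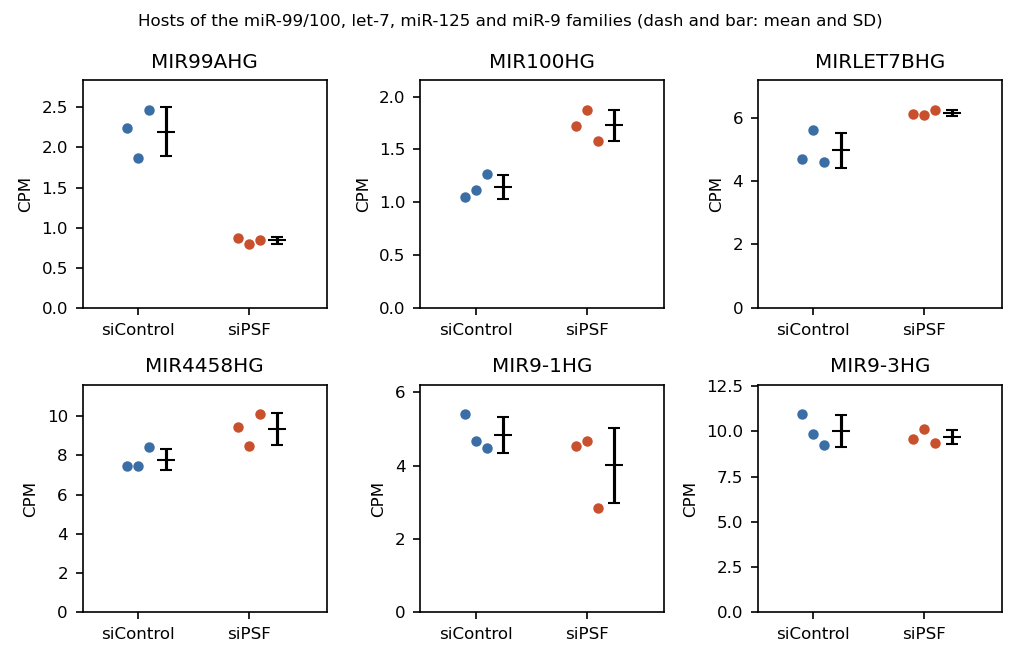
CPM of the 6 hosts that share seeds with another host, in each siControl (blue) and siPSF (orange) library. The mean and SD of the 3 libraries are in black, and the miR-124 hosts were not compared by seed. MIR99AHG is lower in siPSF without overlap, MIR100HG, MIRLET7BHG and MIR4458HG are higher without overlap, and the groups of both miR-9 hosts overlap.

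MIR1915HG (gene ID 399726, chromosome 10, 21492658 to 21497260, minus strand) was the second host called lower and among the most abundant. Its microRNA has an arm on each side of the hairpin, and neither seed was found in another host.
hsa-miR-1915-3p: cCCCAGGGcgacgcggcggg
hsa-miR-1915-5p: aCCUUGCCuugcugcccgggcc
MIR1915HG was at 13.6, 18.1 and 18.97 CPM in siControl and 10.2, 9.74 and 12.7 CPM in siPSF. The groups did not overlap, although siControl replicate 1 lay close to siPSF replicate 3. Means of 3 libraries were 16.9 ± 2.87 CPM (SD) in siControl and 10.9 ± 1.58 CPM in siPSF, which is a log2 change of -0.64 (SE 0.15, edgeR adjusted p = 0.012). The adjusted p was 0.062 without siControl replicate 2 and 0.065 without siControl replicate 3, and the value stayed between -0.775 and -0.554 in all 6 such fits.

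MIR34AHG, the most abundant host, and MIR600HG had the widest spread among siPSF libraries of the hosts above 1 CPM, with coefficients of variation of 29.2% and 79.2%. The microRNA miR-34a is a direct target of p53, and its sequence is shown because its host had the highest level of all.
hsa-miR-34a-5p: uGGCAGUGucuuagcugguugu
hsa-miR-600: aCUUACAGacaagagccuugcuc
MIR34AHG (gene ID 106614088, chromosome 1, 9148011 to 9182338, minus strand) was at 33.8, 30.9 and 26.5 CPM in siControl. It was at 47.0 and 50.0 CPM in siPSF replicates 1 and 2 but at 27.7 CPM in siPSF replicate 3, which lies inside the siControl range. The log2 fold change was 0.45 (SE 0.18, edgeR adjusted p = 0.12). Without siPSF replicate 3 it was 0.67, with an adjusted p of 6.4e-04 (edgeR), so that 1 library decided this call. LNCTAM34A, a lncRNA gene on the opposite strand at the same place, was at 2.29, 2.02 and 2.09 CPM in siControl and 2.64, 3.21 and 2.06 CPM in siPSF, with the same library lowest in its group.

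MIR600HG (gene ID 81571, chromosome 9, 123109494 to 123115477, minus strand) was at 0.781, 1.67 and 0.206 CPM in siControl and 7.01, 4.46 and 0.649 CPM in siPSF. In both groups replicate 3 was the lowest library, and siPSF replicate 3 lay below siControl replicates 1 and 2. The log2 fold change was 2.19 with a 95% interval from 0.65 to 3.72 (edgeR adjusted p = 0.056). Without siPSF replicate 3 the value was 2.69 and the adjusted p 5.6e-04 (edgeR). Without siControl replicate 3 the value was 1.72 and without siPSF replicate 1 it was 1.52, with adjusted p-values of 0.20 and 0.18, and without siControl replicate 2 it was 3.03 (adjusted p = 0.052). MIR600HG lies inside STRBP on the same strand, so STRBP reads that fall within MIR600HG may not be told apart from its own. STRBP, an RNA-binding protein gene, was at 49.7, 46.2 and 52.0 CPM in siControl and 46.1, 43.2 and 40.7 CPM in siPSF (log2 fold change -0.19, edgeR adjusted p = 0.19) and did not share the spread of MIR600HG.

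**Figure D4:**
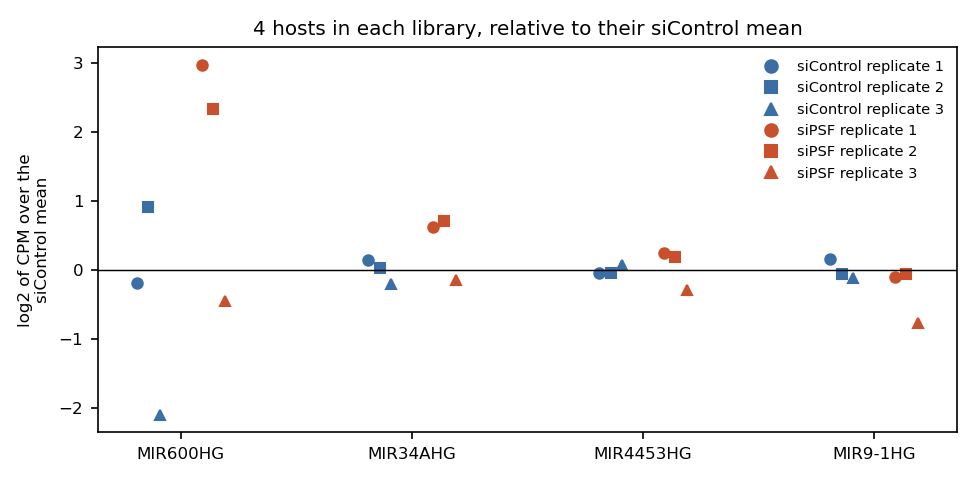
Log2 of the CPM in each library over the siControl mean of the same gene, for 4 hosts chosen after their values were seen. Circles, squares and triangles are replicates 1, 2 and 3 of siControl (blue) and siPSF (orange). In all 4 hosts the triangle of siPSF lies below the circle and square of siPSF, and in MIR600HG the triangle of siControl is lowest of all.

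MIR4453HG (gene ID 54553, chromosome 4, 152536264 to 152539263, plus strand), like MIR9-1HG, had siPSF replicate 3 below the other 5 libraries. It was at 11.1, 11.0 and 12.0 CPM in siControl and 13.4, 13.0 and 9.26 CPM in siPSF, and the log2 change of 0.07 (95% interval -0.24 to 0.37, edgeR adjusted p = 0.79) turned negative without siPSF replicate 1 and with limma on FPKM, and was 0.218 without siPSF replicate 3. Its microRNA has no relative among the other hosts.
hsa-miR-4453: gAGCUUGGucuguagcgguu

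MIR17HG (gene ID 407975, chromosome 13, 91347687 to 91354577, plus strand) carries the 6 microRNAs of the miR-17-92 cluster, which MYC and MYCN are known to induce. They fall into 4 seed groups, shown here because this host has the most microRNAs of all.
hsa-miR-17-5p: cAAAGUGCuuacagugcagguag
hsa-miR-20a-5p: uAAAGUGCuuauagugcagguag
hsa-miR-18a-5p: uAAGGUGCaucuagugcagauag
hsa-miR-19a-3p: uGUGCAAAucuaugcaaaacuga
hsa-miR-19b-3p: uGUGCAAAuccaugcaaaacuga
hsa-miR-92a-3p: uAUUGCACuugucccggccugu
By counts MIR17HG was at 9.76, 7.57 and 11.1 CPM in siControl and 9.13, 6.44 and 10.9 CPM in siPSF. The groups overlapped fully, with replicate 2 lowest and replicate 3 highest in each, and the log2 fold change was -0.11 (95% interval -0.51 to 0.30, edgeR adjusted p = 0.75). The deposited FPKM gave another picture: 2.04, 2.95 and 4.59 in siControl and 1.63, 1.83 and 2.01 in siPSF, without overlap. Limma on log2(FPKM + 0.5) gave a difference of -0.62 (adjusted p = 0.071). The transcript length that a library's FPKM implies (its counts scaled to library size, over FPKM) was 4.89, 2.58 and 2.56 kb in siControl and 5.51, 3.40 and 5.27 kb in siPSF. The implied length is not a measured one and serves only to compare libraries. For MIR4453HG it was 3.3 to 3.33 kb, above the 3.0 kb that the gene spans. RefSeq lists more than 1 transcript for MIR17HG, and whether their mix differed between libraries was not tested.

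**Figure D5:**
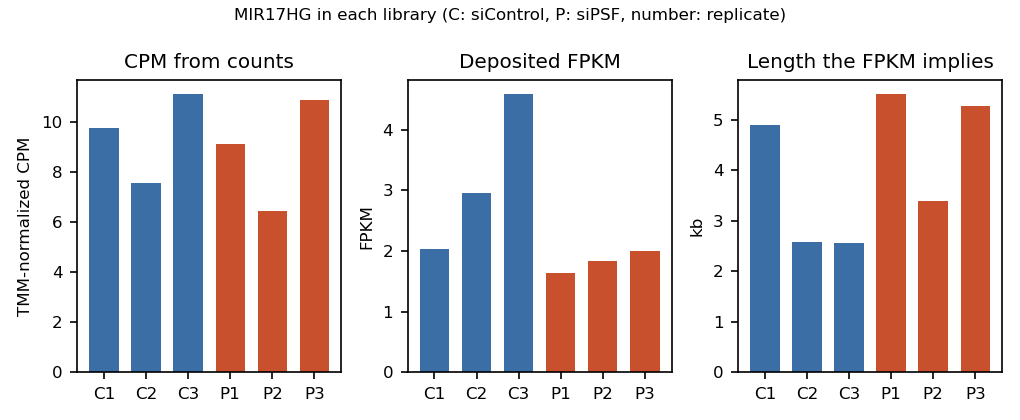
MIR17HG in the 6 libraries as TMM-normalized CPM (left), deposited FPKM (middle) and the length in kb that the FPKM implies (right). Bars start at 0, blue bars are siControl replicates 1 to 3 (C1 to C3) and orange bars siPSF replicates 1 to 3 (P1 to P3). The CPM bars of the groups overlap, while all 3 siPSF bars of FPKM lie below the siControl bars and the implied length ranges from 2.56 to 5.51 kb.

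Few of the hosts had such a spread of the implied length. Of the 23 hosts with at least 50 counts in every library, 3 had a ratio of over 1.2 between the largest and the smallest implied length: MIR17HG with 2.15, MIR4435-2HG with 1.54 and MIR22HG with 1.36. Of the 13115 genes in the table whose lowest library held 200 counts or more, 4.37% exceeded that ratio. The count minimum differs (50 against 200), so the shares cannot be compared directly.

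MIR137HG (gene ID 400765, chromosome 1, 97988000 to 98049693, minus strand) carries miR-137, a microRNA of neuronal maturation, and was not called.
hsa-miR-137-3p: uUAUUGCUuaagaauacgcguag
It was at 4.17, 3.80 and 4.37 CPM in siControl and 3.94, 4.04 and 4.39 CPM in siPSF, with a log2 change of 0.00 (95% interval -0.29 to 0.30, edgeR adjusted p = 0.99). Its neighbour DPYD, a gene of pyrimidine breakdown whose GENCODE span reaches into MIR137HG on the same strand, fell from 23.0 ± 1.36 to 11.9 ± 0.922 CPM (SD, n = 3 each; log2 fold change -0.96, edgeR adjusted p = 1.7e-04). The precursor MIR2682, which lies in the same host, had its own row with a log2 change of -0.35 (SE 0.30, edgeR adjusted p = 0.46).

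MIR181A2HG (gene ID 100379345, chromosome 9, 124658436 to 124698628, plus strand) was not called. Its products, both with the seed of the miR-181 family, are a pair with different middle bases.
hsa-miR-181a-5p: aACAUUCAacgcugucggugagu
hsa-miR-181b-5p: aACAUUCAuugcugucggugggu
Its level was 2.53, 2.04 and 1.86 CPM in siControl and 1.43, 1.50 and 1.51 CPM in siPSF, so that all siPSF libraries lay below the siControl libraries. The log2 fold change was -0.53 (SE 0.18, edgeR adjusted p = 0.067). DESeq2's Wald test and limma on log2(FPKM + 0.5) gave adjusted p-values of 0.033 and 0.015. NR6A1 lies over it on the opposite strand and had a log2 change of -0.15 (edgeR adjusted p = 0.54), with siPSF values of 8.17, 8.94 and 12.2 CPM against 10.4, 11.4 and 10.8 CPM in siControl.

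MIR497HG (gene ID 100506755, chromosome 17, 7015818 to 7019654, minus strand) carries miR-195 and miR-497, members of the miR-15/16 family, which target genes of the cell cycle. MIR29B2CHG (gene ID 100128537, chromosome 1, 207801518 to 207822703, minus strand) carries miR-29b-2 and miR-29c, known for their collagen targets. In each pair the seed is shared and the rest differs.
hsa-miR-195-5p: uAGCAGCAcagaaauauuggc
hsa-miR-497-5p: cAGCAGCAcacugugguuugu
hsa-miR-29b-3p: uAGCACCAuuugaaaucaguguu
hsa-miR-29c-3p: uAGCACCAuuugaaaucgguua
MIR497HG was at 3.49, 3.37 and 2.58 CPM in siControl and 2.57, 2.94 and 2.33 CPM in siPSF, with a log2 change of -0.27 (95% interval -0.64 to 0.10, edgeR adjusted p = 0.33). The groups overlapped. On the opposite strand of this host lie C17orf49 and the read-through gene RNASEK-C17orf49, with log2 fold changes of 0.05 and 0.51 (edgeR adjusted p = 0.80 and 0.092). MIR29B2CHG was among the steadiest hosts, at 1.32, 1.43 and 1.32 CPM in siControl and 1.35, 1.37 and 1.16 CPM in siPSF, with a log2 change of -0.07 (95% interval -0.47 to 0.33).

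MIR22HG (gene ID 84981, chromosome 17, 1711504 to 1716210, minus strand) and MIR210HG (gene ID 100506211, chromosome 11, 565657 to 568457, minus strand) carry microRNAs known from stress and hypoxia responses.
hsa-miR-22-3p: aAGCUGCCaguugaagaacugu
hsa-miR-210-3p: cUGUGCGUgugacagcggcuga
MIR22HG was at 3.70, 4.68 and 4.53 CPM in siControl and 3.67, 3.93 and 3.23 CPM in siPSF, with a log2 change of -0.25 (95% interval -0.58 to 0.07, edgeR adjusted p = 0.29). MIR210HG was at 1.78, 2.04 and 1.72 CPM in siControl and 1.56, 1.73 and 2.29 CPM in siPSF, with a log2 change of 0.01 (95% interval -0.41 to 0.43, edgeR adjusted p = 0.98). Both groups overlapped for each of these hosts.

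Of the next 3 hosts, also above 1 CPM, none shared the seed of the microRNA shown here with another host.
hsa-miR-570-3p: cGAAAACAgcaauuaccuuugc
hsa-miR-3936: uAAGGGGUguauggcagaugca
hsa-miR-762: gGGGCUGGggccggggccgagc
MIR570HG (gene ID 440993, chromosome 3, 195688498 to 195711875) was at 1.53, 1.78 and 1.79 CPM in siControl and 1.23, 1.35 and 0.903 CPM in siPSF. The groups did not overlap, and the log2 fold change was -0.54 (SE 0.20, edgeR adjusted p = 0.093), with an adjusted p of 0.036 by limma on log2(FPKM + 0.5). MIR3936HG (gene ID 553103, chromosome 5, 132311276 to 132369916, minus strand) was at 1.55, 1.83 and 1.94 CPM in siControl and 1.38, 1.53 and 1.18 CPM in siPSF, likewise without overlap, with a log2 change of -0.38 (SE 0.19, edgeR adjusted p = 0.20). It lies opposite SLC22A4 and SLC22A5, transporter genes with log2 fold changes of -0.09 and 0.10 (edgeR adjusted p = 0.86 and 0.66).

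MIR762HG (gene ID 101928736, chromosome 16, 30875460 to 30895220, plus strand) was at 3.08, 3.33 and 2.69 CPM in siControl and 3.86, 3.92 and 3.60 CPM in siPSF. All siPSF libraries lay above the siControl libraries, by a log2 change of 0.32 (SE 0.15, edgeR adjusted p = 0.16). BCL7C, which lies over it on the opposite strand, was about an order of level higher, at 51.8, 47.9 and 44.1 CPM in siControl and 49.0, 53.2 and 46.0 CPM in siPSF. Whether strand was used in counting is not given in the sources used here, so counts of such opposite pairs are uncertain.

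The 6 hosts under 1 CPM were not called, and 1 of them was not tested. MIR4435-2HG (299.3 kb on chromosome 2) ranged from 0.806 to 1.21 CPM in siControl and from 0.578 to 0.732 CPM in siPSF, with no overlap and a log2 change of -0.62 (SE 0.24, edgeR adjusted p = 0.10). MIR7-3HG, which carries a copy of the neuroendocrine miR-7, ranged from 0.643 to 0.765 CPM and from 0.644 to 0.923 CPM (log2 fold change 0.04). MIR3659HG ranged from 0.167 to 0.292 CPM and from 0.294 to 0.438 CPM, with no overlap (log2 fold change 0.66, edgeR adjusted p = 0.22). MIR503HG, whose miR-503 belongs to the wider miR-15/16 group, had 13 to 26 counts in siControl and 16 to 36 in siPSF (log2 fold change 0.73, 95% interval -0.13 to 1.60). MIR193BHG, the host of miR-193b and miR-365a, had 10 to 19 counts in siControl and 4 to 11 in siPSF (log2 fold change -0.70, 95% interval -1.77 to 0.36). MIR1302-2HG had 2 to 4 counts in every library and was removed by the filter. The intervals of MIR193BHG, MIR503HG, MIR3659HG and MIR4435-2HG (-1.13 to -0.10) reached beyond a 2-fold change.

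The miR-124 hosts above 1 CPM were not called. The microRNA miR-124 marks differentiated neurons and represses many non-neuronal mRNAs. MIR124-1HG (gene ID 157627, chromosome 8) was at 12.6, 9.62 and 8.03 CPM in siControl and 10.2, 10.7 and 11.7 CPM in siPSF, a log2 change of 0.10 (95% interval -0.23 to 0.44, edgeR adjusted p = 0.70). MIR124-2HG (gene ID 100130155, chromosome 8) was at 2.24, 2.08 and 2.83 CPM in siControl and 1.90, 1.87 and 2.76 CPM in siPSF, a log2 change of -0.13 (95% interval -0.57 to 0.30, edgeR adjusted p = 0.70). The groups overlapped for both.

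Across the 24 hosts that were tested and not called, the 95% interval stayed within a 2-fold change in either direction for 19 and reached it or went beyond for 5. It included 0 for 16.

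Rows of single microRNA precursors were also in the table, but they gave no second reading of the hosts. Of the 45 microRNA genes inside hosts, 20 had a row, and 12 of these held the same count, 2 or 3, in all 6 libraries, among them MIR22, MIR137, MIRLET7B, MIR92A1 and MIR29C. Across all genes listed, 81 of 337 microRNA rows and 180 of 21301 rows were constant in this way. Only 3 rows of precursors inside hosts passed the filter. MIR570 (log2 fold change -0.23) and MIR3936 (-0.42), like MIR2682, lay below 0 and were not called by edgeR (adjusted p = 0.64, 0.44 and 0.46). The row of MIR34A, named after its values were seen, held 1, 3 and 1 counts in siControl and 3, 5 and 5 in siPSF.

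The genes that cut and load microRNAs were set beside the hosts, in a list that also holds RNA-binding proteins such as PSPC1 and HNRNPA1. Of the 31 genes of a list of microRNA biogenesis and effector genes, 30 were tested, 2 were called lower and 2 higher (6.67% each way, beside 8.27% and 6.65% of all genes tested), and the median log2 fold change was -0.07. DROSHA, the nuclease of the Microprocessor, fell from 100.9 ± 6.36 to 83.5 ± 2.16 CPM (SD, n = 3 each; log2 fold change -0.27, edgeR adjusted p = 0.041). AGO3, an Argonaute gene, fell by 0.38 on the log2 scale (adjusted p = 0.022). PSPC1, a paraspeckle protein related to PSF, rose from 43.7 ± 5.75 to 94.9 ± 3.30 CPM (log2 fold change 1.12, adjusted p = 5.0e-05), and HNRNPA1, a splicing factor that also binds the miR-18a hairpin, rose by 0.64 on the log2 scale (adjusted p = 0.0012). DGCR8 (-0.22, adjusted p = 0.093), DICER1 (-0.48, adjusted p = 0.074), AGO2 (0.04, adjusted p = 0.81) and NONO (0.21, adjusted p = 0.10) were not called by edgeR. The count of lower genes was 0 without siControl replicate 2, siControl replicate 3 or siPSF replicate 2, 1 without siPSF replicate 1 and 4 without siControl replicate 1 or siPSF replicate 3.

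A list of microRNA hosts that are not named for their microRNA was set beside them. Of 46 such genes listed, 43 were tested, of which 11 were called lower (25.6%, beside 8.27% of all genes) and 0 higher (edgeR, and also DESeq2's Wald test; 0 had a higher siPSF value at an unadjusted p under 0.05). Their median log2 fold change was -0.23. A microRNA gene lay inside 41 of them on the same strand. The hosts called lower with the smallest p-values were EVL (miR-342, -0.73), TENM4 (miR-708, -0.97), PTPRN2 (miR-153-2, -0.64), R3HDM1 (miR-128-1, -0.54), TLN2 (miR-190a, -0.58), LPP (miR-28, -1.61 at a mean of 0.178 CPM), SLIT2 and SLIT3 (the miR-218 genes, -0.94 and -0.51), SMC4 (miR-15b and miR-16-2, -0.35) and MEG9, in which no RefSeq microRNA gene was found (-1.20 at 0.211 CPM). The called genes spanned a median of 454.1 kb and the others 36.0 kb, and the part of gene length in this count was not tested. The count was 7 without siControl replicate 2 and 6 without siControl replicate 3. The hosts named for their microRNA spanned a median of 20.5 kb. The difference in calls between the lists was not tested.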

How the data were processed

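Poly(A)-selected RNA of 6 SH-SY5Y libraries (3 siControl, 3 siPSF) was sequenced and the authors deposited 1 table of read counts per gene with FPKM beside them. The submitters' processing notes name Trimmomatic, HISAT2 2.1.0, StringTie 2.1.3b and GRCh38, while the study's methods name TopHat and RefSeq genes. Whether counting used strand is not given in the sources used here. Every listed gene has at least 1 count in each library, so a row at 0 is not seen.

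All 21301 genes were fitted together. edgeR 4.0.16 (filterByExpr, TMM, quasi-likelihood test, no block, Benjamini-Hochberg adjustment over 19694 genes) gave the results, with calls at an adjusted p under 0.05 and 95% intervals from the fit. Replicate pairs differed by more than sampling noise. Counts of 19694 genes were simulated with the fitted dispersions, and 99 tested genes were changed 2-fold and 98 were changed 1.5-fold. The fit called 70.7% of the 2-fold and 40.8% of the 1.5-fold changes, and 7.56% of its calls were false. In the data 2938 genes were called, far more than were changed in the simulation, so these rates need not hold for the data. DESeq2 1.42.0 and limma 3.58.1 on log2(FPKM + 0.5) were alternatives, the latter for mean FPKM of at least 0.5.

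Hosts with a mean of at least 1 CPM or a call are given library by library, the others by range. From the biogenesis list, called genes and DROSHA, DGCR8, DICER1 and AGO2 are named, and NONO was added after its values were seen. From the list of other hosts the 10 called genes with the smallest p-values are named. Members and lists were chosen with earlier results of these data known. Sequences and positions are from RefSeq on GRCh38.p14. For miR-9 and miR-1915 both arms are printed, and for each other microRNA the arm printed is the one its family is usually named for.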

Additional observations from a re-analysis of the deposited data

How the results depend on the processing

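Of the 27 tested hosts, 18 kept their direction under every alternative run and 9 changed it in at least 1, in 25 of 310 values, and none of these 9 was called. MIR99AHG kept its call wherever it was tested, as did SFPQ (-1.07 to -0.905 without single libraries). The hosts called higher numbered 0 with DESeq2's size factors, without the filter and with both limma fits, where MIR100HG and MIR600HG were below the FPKM minimum, and 0 to 3 without single libraries. The hosts called lower numbered 3 with DESeq2's Wald test and with each limma fit, and 1 to 2 without single libraries. Biogenesis genes called lower numbered 5 with DESeq2's Wald test, 4 with each limma fit, 4 with the replicate block and 0 to 4 without single libraries. Other hosts called lower numbered 6 to 13 without single libraries. Over all genes 1628 were lower and 1310 higher, against 1782 and 736 with limma at a pseudocount of 0.5 and 1771 and 737 at 0.1, and without single libraries 928 to 1735 were lower and 572 to 1405 higher. The cause was not tested.

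Values that changed sign were near 0. With limma at pseudocounts of 0.5 and 0.1 they were -0.0239 and -0.0284 for MIR4453HG, -0.0337 and -0.052 for MIR7-3HG, -0.0543 and -0.0673 for MIR137HG, and -0.0441 and -0.0693 for MIR210HG. MIR137HG was at -0.0015 without the filter and at -0.00472 with DESeq2's Wald test. Without single libraries the range was -0.0305 to 0.218 for MIR4453HG, -0.0425 to 0.295 for MIR124-1HG, -0.107 to 0.0188 for MIR9-3HG, -0.149 to 0.126 for MIR7-3HG, -0.0591 to 0.0465 for MIR137HG, -0.284 to 0.0759 for MIR17HG, -0.113 to 0.00548 for MIR29B2CHG, -0.339 to 0.00526 for MIR124-2HG and -0.165 to 0.125 for MIR210HG.

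Whether the replicate numbers pair the libraries could not be decided with 3 libraries per group. The deviations of same-numbered libraries correlated at -0.0411, 0.211 and 0.0973 over 14679 genes. Those of differently numbered libraries ranged from -0.283 to 0.18. With the replicate block 1640 genes were lower and 1389 higher, MIR210HG was at -0.00114, MIR100HG had an adjusted p of 0.077 and MIR600HG one of 0.0078 (edgeR). Depth limits the hosts under 1 CPM, whose counts fell as low as 2.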
